A study of Mus musculus with 16 samples.

Results

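The reads described are the 5′ fragments of the glycine tRNAs tRNA-Gly-GCC and tRNA-Gly-CCC in mature mouse sperm. A read was counted when it was 18 to 44 nt long, began at base 1, 2 or 3 of one of these tRNAs and differed from it by at most 1 substitution. Of 4230643 distinct read sequences in the 8 sperm libraries, 4481 met this rule, and they held 18719434 reads. The libraries came from 4 groups with 2 libraries each: Dnmt2-/- males on a high-fat diet (HFD, D12492), Dnmt2-/- males on a normal diet (ND, Diet 1415), Dnmt2+/+ males on HFD and Dnmt2+/+ males on ND. All were on the C57BL/6NCrl background. The Dnmt2-/- males came from the line B6;129-Dnmt2tm1Bes/J, a germline knockout of Dnmt2 (Trdmt1), backcrossed for over 5 generations. The labels give an age of 6 weeks for purchased C57BL/6NCrl males and call the mice adult when sperm were taken from the cauda epididymis, the last part of the sperm store. Sperm were released into physiological saline at 37 degrees and pelleted, and the labels name no step that removes other cells. The labels do not say whether a library is 1 animal or a pool, nor whether replicates are separate animals, so each p-value speaks only of the spread among these libraries, and that spread may be technical.

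Transfer RNAs carry amino acids to the ribosome, and cutting in or near the anticodon loop leaves a 5′ and a 3′ fragment. In mature sperm the 5′ fragments of glycine tRNAs are known to be among the most abundant small RNAs, and much of the sperm's fragment load is known to be acquired in the epididymis. DNMT2 is a tRNA methyltransferase that adds a methyl group to a cytosine in the anticodon loop of the tRNAs for aspartate (GTC), glycine (GCC) and valine (AAC), and this mark is known to protect the tRNA from cutting. The series title links Dnmt2 to the passing on of a father's diet-induced metabolic disorder through sperm small RNA, and the design asks how diet and the loss of Dnmt2 change that RNA. Read counts measure fragments and neither methylation nor Dnmt2 mRNA, so the deletion was not checked here. Fragments of the valine tRNA were not analysed here.

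Reads of 4 glycine tRNA sequences were found, 2 of each anticodon. They are shown because every position below is counted on them, and they were assembled from the reads themselves, 5′ to 3′, with the anticodon in capitals. The aspartate tRNA is shown as the sequence that the glycine reads are set against.
Gly-GCC-a: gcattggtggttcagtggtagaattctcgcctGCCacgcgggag
Gly-GCC-b: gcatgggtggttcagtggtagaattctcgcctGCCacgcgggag
Gly-CCC-a: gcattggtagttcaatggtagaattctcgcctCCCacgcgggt
Gly-CCC-b: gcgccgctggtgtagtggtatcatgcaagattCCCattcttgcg
Asp-GTC: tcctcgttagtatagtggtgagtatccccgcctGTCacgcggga
The anticodon occupies bases 33 to 35 of the glycine sequences and bases 34 to 36 of Asp-GTC, counted from 1 at the 5′ end. Gly-GCC-b differs from Gly-GCC-a by T5G. Gly-CCC-a differs from it by G9A, G15A, G33C and A43T, of which G33C is the anticodon's own first base. A43T is the last base assembled, where 4 Gly-CCC-a reads from base 1 ended, and is less certain than the others. Gly-CCC-b is a distant relative with 19 differences over 44 bases. The cytosine known to be methylated by DNMT2 in the GCC tRNA is base 37 of Gly-GCC-a. The RefSeq annotation of the mouse assembly GRCm38.p6 lists 14 tRNA-Gly-GCC genes, with 5 on chromosome 1, 3 on chromosome 8, 2 on chromosome 13 and 1 each on chromosomes 2, 3, 4 and 11. It lists 6 tRNA-Gly-CCC genes, with 3 on chromosome 3 and 1 each on chromosomes 4, 6 and 17. The loci that gave the reads were not determined.

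The fragments themselves were short and few in kind. The next sequences are the reads that hold most of the counts, with a substituted base in capitals, and the most abundant read of each of the rarer tRNAs.
Gly-GCC-a, 31 nt: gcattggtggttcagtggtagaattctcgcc
Gly-GCC-a, 30 nt: gcattggtggttcagtggtagaattctcgc
Gly-GCC-a, 32 nt: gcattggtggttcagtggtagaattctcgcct
Gly-GCC-a, 31 nt with G6T: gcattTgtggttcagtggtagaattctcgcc
Gly-GCC-a, 31 nt with C31T: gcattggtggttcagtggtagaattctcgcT
Gly-GCC-a, 31 nt with G29T: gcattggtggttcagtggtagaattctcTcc
Gly-GCC-b, 31 nt: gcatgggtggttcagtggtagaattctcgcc
Gly-CCC-a, 33 nt: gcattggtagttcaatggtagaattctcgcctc
Gly-CCC-b, 33 nt: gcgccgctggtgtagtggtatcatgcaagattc
The 31-nt and 30-nt exact reads of Gly-GCC-a averaged 53284 and 30416 counts per 1000000 reads of the library (CPM). The 31-nt G6T, 32-nt exact and 31-nt C31T reads averaged 11849, 11827 and 9003 CPM. The rest of the 10 most abundant were the 30-nt reads with G6T (7920 CPM) and C30T (5885 CPM), the 29-nt and 28-nt exact reads (4605 and 3670 CPM) and the 31-nt G29T read (4064 CPM). These 10, all of them Gly-GCC-a, held 72.2% to 83.0% of the member reads of a library. Exact matches made up 63.3% of member reads in 220 sequences, and reads with 1 substitution made up 36.7% in 4261 sequences. A start at base 1 accounted for 99.4% of the reads, a start at base 2 for 0.352% and a start at base 3 for 0.233%.

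The libraries held 10165031 to 19030258 reads, and base changes shared by many reads placed them in 3 sets that the groups do not explain. Set A held both Dnmt2-/- ND libraries and Dnmt2+/+ ND replicate 1. In it the median rate of G-to-T reading at base 29, taken over 187 to 193 abundant reads that are not glycine members, was 3.34% to 3.62%. In the other 5 libraries that rate was 0.0127% to 0.0294%. Set B was made up of Dnmt2-/- HFD replicate 1 with the 2 libraries of Dnmt2+/+ HFD sperm. Its mark was C-to-G reading at base 26, with a median rate of 0.0696% to 0.0833%, against 0 in the other libraries. Set C was the rest, Dnmt2-/- HFD replicate 2 with Dnmt2+/+ ND replicate 2. No shared mark joins these 2 libraries, and the labels do not say whether they were handled together. Set A is ND only and set B is HFD only, so diet and set cannot be told apart except in set C, where the genotypes of the 2 libraries differ too. Marker microRNAs moved with the sets as well. In the lists below, found means that the reference used held the mature sequence of the microRNA. The other listed microRNAs were not counted, so their levels in these libraries are not known. The summed level of 5 epididymal epithelium microRNAs (miR-200a-3p, miR-200b-3p, miR-200c-3p, miR-141-3p and miR-429-3p) ran between 3090 and 4058 CPM in set B and between 193 and 419 CPM in set A, and set C had 616 CPM in its HFD and 1945 CPM in its ND library. The summed level of 5 found of 6 listed blood microRNAs was 36.2 to 87.1 CPM in HFD libraries and 2.94 to 33.8 CPM in ND libraries, and most of it was miR-146a-5p, at 32.54 to 82.7 CPM in HFD and 2.21 to 29.2 CPM in ND libraries. Of the red cell markers in that list, miR-451a was at 0.303 to 2.27 CPM and miR-144-3p at 0 in all 8 libraries. The 1 found of 2 listed liver microRNAs, miR-192-5p, ran the other way, at 6.02 to 10.9 CPM in HFD and 15.9 to 26.5 CPM in ND libraries. Of the muscle list 1 of 5 was found, miR-206-3p, which lay between 73.3 and 87.5 CPM across set B and never above 0.676 CPM in the rest. The part of other cells in the results below was not tested. The 8 found of 9 listed germ cell microRNAs summed to 356 to 1593 CPM, and miR-881-3p led them in every library.

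Glycine tRNA fragments were a large part of every library and did not differ between diets or genotypes beyond the spread of the libraries. Their level was 167624 and 159233 CPM in Dnmt2-/- HFD sperm, against 226039 and 159611 CPM in Dnmt2-/- ND sperm. It was 133940 and 162685 CPM in Dnmt2+/+ HFD sperm, against 150781 and 285185 CPM in Dnmt2+/+ ND sperm. These levels correspond to 13.4% to 28.5% of all reads, and the 2 highest libraries were ND while the other 2 ND libraries lay inside the HFD range. In bulk RNA, fewer cells of a type and less RNA per cell cannot be told apart.

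The 4 HFD libraries averaged 155870 ± 15020 CPM and the 4 ND libraries 205404 ± 62906 CPM (SD; two-sided exact permutation test p = 0.257, adjusted p = 0.643 over 10 tests). The Dnmt2-/- libraries averaged 178127 ± 32175 CPM and the Dnmt2+/+ libraries 183148 ± 69039 CPM (SD, n = 4 each; exact permutation test p = 0.943). The difference between genotypes changed direction within the sets: averaged over sets A and B it was 30678 CPM higher in Dnmt2-/-. Between diets within set C the difference, HFD minus ND, was -125951 CPM. In the quasi-likelihood test of edgeR, with p adjusted over 30276 groups of reads that share their first 18 bases, the summed glycine class had a log2 fold change of -0.56 ± 0.35 (SE) for HFD over ND in Dnmt2+/+ sperm (adjusted p = 0.697). In Dnmt2-/- sperm the log2 fold change for HFD over ND was -0.24 ± 0.35 (adjusted p = 0.995). For Dnmt2-/- over Dnmt2+/+ the log2 value was -0.18 ± 0.35 among ND libraries and 0.14 ± 0.35 among HFD libraries. The interaction of diet and genotype was 0.32 ± 0.49.

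**Figure D1:**
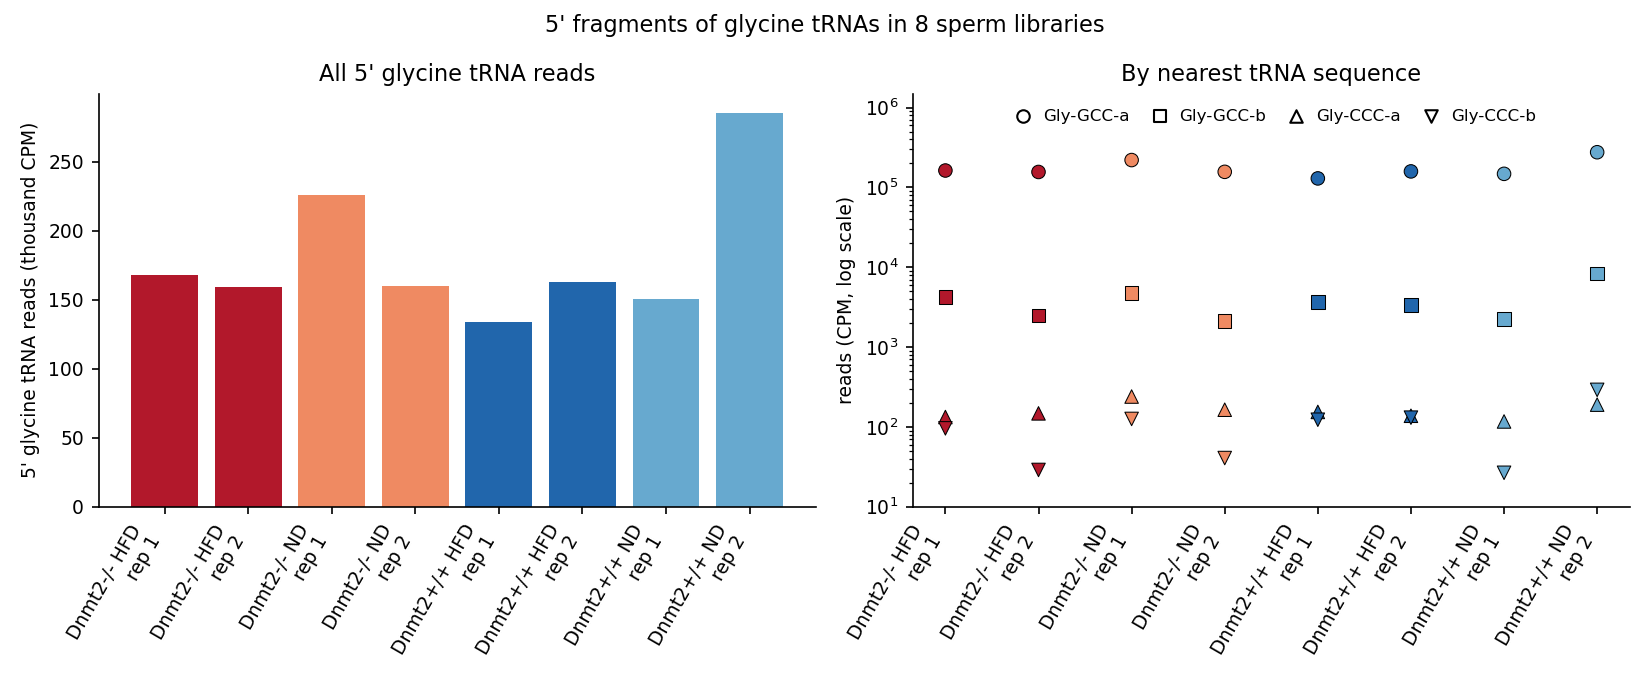
Level of 5′ glycine tRNA reads in each sperm library, in units of 1000 CPM (left, bars from 0) and split by the nearest of the 4 tRNA sequences in CPM on a log axis (right, 1 symbol per library); red and orange are Dnmt2-/- HFD and Dnmt2-/- ND, dark and light blue are Dnmt2+/+ HFD and Dnmt2+/+ ND. The bars run between 133940 and 285185 CPM and diets overlap, and the levels of the 4 sequences differ by orders of magnitude, with both CCC sequences near or below 291 CPM in every library.

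Gly-GCC-a supplied nearly all of these reads. It held 18232179 reads, Gly-GCC-b held 395526, Gly-CCC-a held 16450 and Gly-CCC-b held 10630. A further 39789 reads were equally near to both GCC sequences and 24860 reads were equally near to a GCC and a CCC sequence. The annotated gene numbers, 14 for GCC and 6 for CCC, are far closer together than the reads: the CCC share of reads that matched only 1 anticodon was 0.0953% to 0.207%.

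Gly-GCC-b, the minor GCC sequence, was at 4228 and 2473 CPM in Dnmt2-/- HFD sperm, against 4784 and 2127 CPM in Dnmt2-/- ND sperm. It was at 3682 and 3341 CPM in Dnmt2+/+ HFD sperm, against 2236 and 8322 CPM in Dnmt2+/+ ND sperm. Its share of resolved GCC reads was 1.34% to 2.93% and the diets overlapped. The other side of its acceptor stem was read as well, since it differs from Gly-GCC-a only by T5G. Reads that ended in the 3′ arm with the pairing base (cccatgcacca in place of ccaatgcacca) numbered 166, or 1.46% of those with the Gly-GCC-a arm. On the 5′ side, reads with the first 18 bases of Gly-GCC-b were 2.50% of those with the first 18 bases of Gly-GCC-a.

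Gly-CCC-a was at 133 and 148 CPM in Dnmt2-/- HFD sperm, against 240 and 164 CPM in Dnmt2-/- ND sperm. It was at 154 and 138 CPM in Dnmt2+/+ HFD sperm, against 117 and 190 CPM in Dnmt2+/+ ND sperm. The diets overlapped. Gly-CCC-b was at 95.8 and 28.9 CPM in Dnmt2-/- HFD sperm, against 126 and 40.7 CPM in Dnmt2-/- ND sperm. It was at 123 and 130 CPM in Dnmt2+/+ HFD sperm, against 26.6 and 291 CPM in Dnmt2+/+ ND sperm. Dnmt2+/+ ND sperm therefore held both the lowest and the highest Gly-CCC-b library, and its 2 replicates were farther apart than any pair of group means.

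No difference in the CCC class passed the test. Its log2 fold change for HFD over ND was -0.20 ± 0.66 (SE) in Dnmt2+/+ sperm and -0.49 ± 0.66 in Dnmt2-/- sperm, with adjusted p-values from edgeR of 0.978 and 0.994. The CCC share averaged 0.155% ± 0.041 in the 4 HFD libraries and 0.139% ± 0.034 in the 4 ND libraries (SD; exact permutation test p = 0.571). It averaged 0.134% ± 0.021 in Dnmt2-/- and 0.159% ± 0.046 in Dnmt2+/+ libraries (SD, n = 4 each; exact permutation test p = 0.371). The 95% Wilson interval of the highest share was 0.199% to 0.215% and that of the lowest was 0.0918% to 0.0990%, so single libraries differed by more than counting error. In set C the direction of the diet means was not kept: the difference was -0.058 percentage points for HFD minus ND. For Dnmt2-/- minus Dnmt2+/+ the difference was 0.050 points in set A and -0.049 points in set B, with a mean of 0.00024. The sets thus disagreed in direction between genotypes.

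The glycine fragments can be set beside those of aspartate, another DNMT2 substrate. The Asp-GTC fragments were rare, at 79.7 to 264 CPM, near the level of the CCC fragments. None of the 4 glycine classes (their sum, GCC alone, CCC alone and reads equally near to both) was called in any of the 5 comparisons by edgeR at an adjusted p under 0.05, and none had an unadjusted p under 0.05. Over all 30276 groups of reads the share called was 0% in each comparison as well, with 765 to 2910 at an unadjusted p under 0.05.

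Most glycine reads stopped just before the anticodon. Over the libraries, a mean of 48.8% of member reads ended at base 31, 27.9% at base 30 and 11.2% at base 32, the base before the anticodon. Bases 25, 27, 28, 29, 33 and 35 were the others that held 1% or more of the reads in at least 1 library, with means of 0.889%, 0.765%, 3.00%, 4.09%, 2.05% and 0.413%. The mean length was 30.4 to 30.8 nt. The balance of the leading pair of ends varied widely among libraries.

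The share ending at base 31 was 35.1% and 50.1% in Dnmt2-/- HFD sperm, against 65.1% and 59.3% in Dnmt2-/- ND sperm. It was 41.1% and 30.7% in Dnmt2+/+ HFD sperm, against 64.6% and 44.1% in Dnmt2+/+ ND sperm. The share ending at base 30 was 42.2% and 28.1% in Dnmt2-/- HFD sperm and 28.5% and 36.9% in Dnmt2+/+ HFD sperm, against 14.4% and 21.1% in Dnmt2-/- ND sperm and 17.1% and 35.03% in Dnmt2+/+ ND sperm. Base 31 was the leading end in 6 libraries, and base 30 led in Dnmt2-/- HFD replicate 1 and Dnmt2+/+ HFD replicate 2. By set, the share at base 31 was lowest in set B (30.7% to 41.1%) and highest in set A (59.3% to 65.1%). In set C it was 50.1% in the HFD and 44.1% in the ND library.

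**Figure D2:**
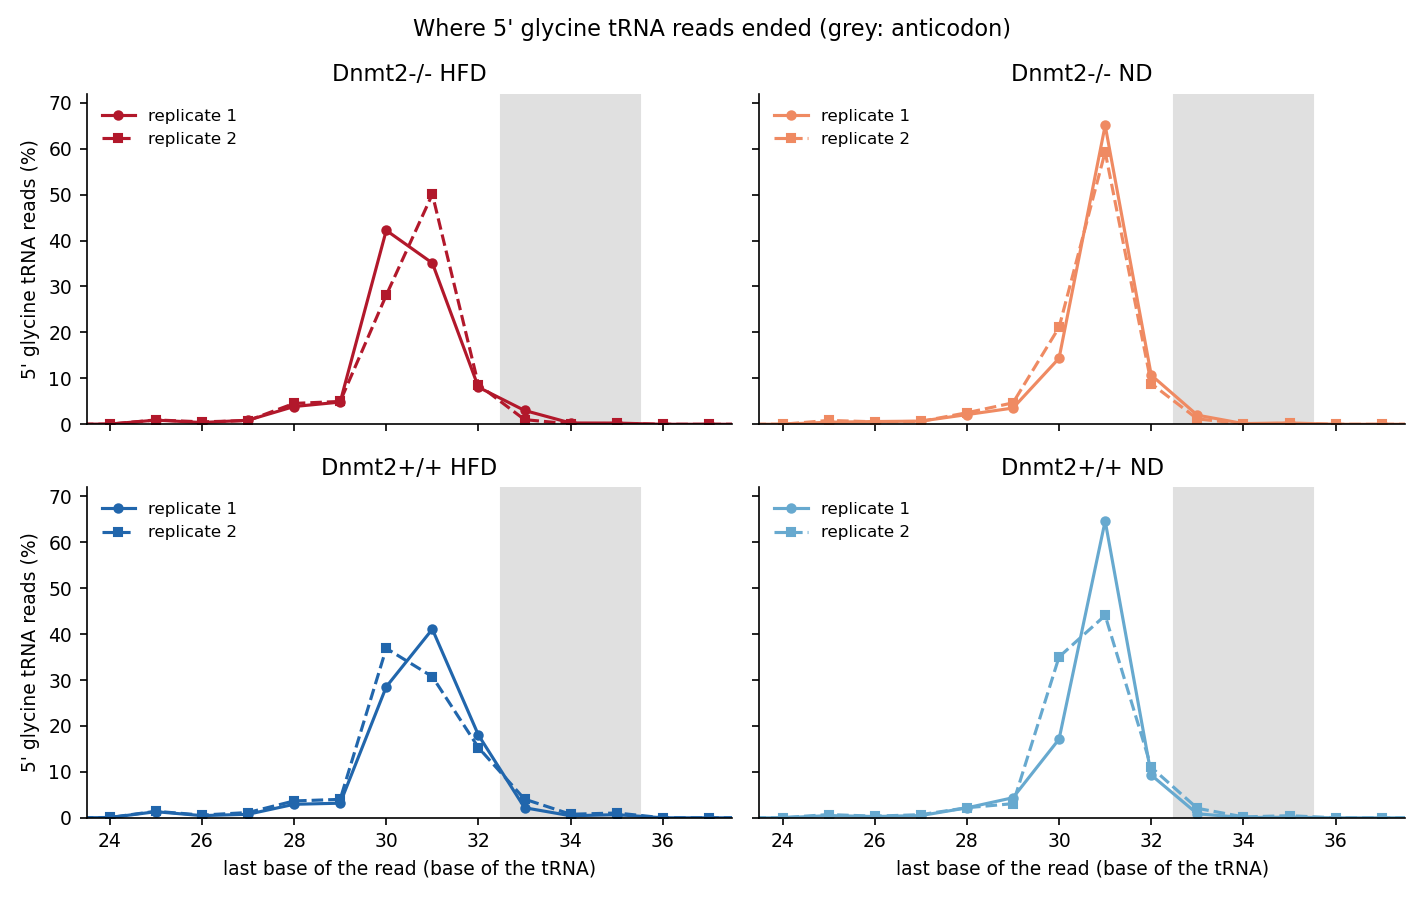
Share of 5′ glycine tRNA reads (percent, vertical axis) by the last base of the read (horizontal axis, bases of the tRNA) in the 4 groups, 1 line per replicate; the grey band marks the anticodon, bases 33 to 35. Ends lie mainly at bases 30 to 32, and base 31 holds 30.7% to 65.1% of the reads.

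Counted against all reads of the library, reads ending at base 31 were at 58824 and 79740 CPM in Dnmt2-/- HFD sperm and at 55000 and 49991 CPM in Dnmt2+/+ HFD sperm. They were at 147056 and 94659 CPM in Dnmt2-/- ND sperm and at 97438 and 125632 CPM in Dnmt2+/+ ND sperm. All 4 HFD libraries lay below all 4 ND libraries, with means of 60888 ± 13078 CPM in HFD and 116196 ± 24880 CPM in ND (SD; two-sided exact permutation test p = 0.0286, the smallest that 4 against 4 can give). Adjusted over the 27 end positions the p was 0.129, so the difference did not pass. The 2 libraries of set C kept this order, with 79740 CPM in the HFD and 125632 CPM in the ND library. Their total of glycine reads had the same order, with 159233 CPM in the HFD and 285185 CPM in the ND library. As a share of member reads, base 31 went the other way in set C, at 50.1% in the HFD and 44.1% in the ND library. In CPM the exact 31-nt read was also lower in all HFD libraries, at 28250 and 54396 CPM in Dnmt2-/- HFD sperm, against 88414 and 63159 CPM in Dnmt2-/- ND sperm. It was at 27153 and 24947 CPM in Dnmt2+/+ HFD sperm, against 63500 and 76455 CPM in Dnmt2+/+ ND sperm.

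In the fit over 50460 sequences by edgeR with its TMM scaling, the 31-nt read had a log2 fold change for HFD over ND of -2.03 ± 0.69 (SE) in Dnmt2+/+ sperm (adjusted p = 0.281). Under scaling by total reads the same log2 fold change was -1.43 ± 0.60 (adjusted p = 0.328). In Dnmt2-/- sperm it was -1.34 ± 0.68 with TMM scaling (adjusted p = 0.421). The direction was kept in both genotypes and no adjusted p passed. The exact 30-nt read, by contrast, was at 36964 and 30111 CPM in Dnmt2-/- HFD sperm, against 19580 and 21914 CPM in Dnmt2-/- ND sperm. It was at 20933 and 32902 CPM in Dnmt2+/+ HFD sperm, against 16441 and 64481 CPM in Dnmt2+/+ ND sperm. The read 1 base shorter thus overlapped between diets.

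The rare longest reads separated the diets in the other direction. Members ending at base 42 were at 101 and 67.4 CPM in Dnmt2-/- HFD sperm, against 24.2 and 33.8 CPM in Dnmt2-/- ND sperm. They were at 204 and 187 CPM in Dnmt2+/+ HFD sperm, against 1.10 and 32.1 CPM in Dnmt2+/+ ND sperm. Each of the ends 40, 41, 42, 43 and 44 was higher in each HFD library than in any ND library, with an exact permutation p of 0.0286 and an adjusted p of 0.129. Of the 27 ends, 5 were higher, 1 was lower and 21 overlapped. The 5 are adjacent ends and need not be independent. Among all 50460 single sequences tested, 8.23% were higher and 1.44% lower on HFD without overlap. Base 37, the cytosine DNMT2 is known to methylate, was reached by 0.0651% to 0.250% of member reads in HFD libraries and by 0.00181% to 0.0296% in ND libraries. Reads ending at bases 40 to 44 were 0.0959% to 0.239% of member reads in set B and at most 0.0287% in set A. In set C they were 0.0638% in the HFD library, between the other sets, and 0.0195% in the ND library, inside the range of set A. The epididymal microRNA sum was also highest in set B, with 616 CPM in the HFD and 1945 CPM in the ND library of set C, and its part in the longest reads was not tested.

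The share of member reads that reached the anticodon's first base was 3.67% and 1.36% in Dnmt2-/- HFD sperm, against 2.45% and 1.52% in Dnmt2-/- ND sperm. It was 3.60% and 6.10% in Dnmt2+/+ HFD sperm, against 1.10% and 2.77% in Dnmt2+/+ ND sperm. The mean was 3.68% ± 1.93 in HFD and 1.96% ± 0.78 in ND (SD, n = 4 each; exact permutation test p = 0.171, adjusted p = 0.571), and within set C the HFD library was 1.41 percentage points lower. By genotype it was 2.25% ± 1.06 in Dnmt2-/- and 3.39% ± 2.08 in Dnmt2+/+ (SD, n = 4 each; exact permutation test p = 0.457). The mean last base was 30.6 ± 0.13 in HFD and 30.7 ± 0.09 in ND (SD, n = 4 each; exact permutation test p = 0.114), the lowest p of the 10 tests of these summary measures. None of the 10 passed.

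Reads of the CCC and GCC sequences ended at different places. Among reads that start at base 1, the share ending at base 33 or later was 33.99% to 64.6% for Gly-CCC-a (mean 52.0%) and 42.8% to 73.7% for Gly-CCC-b (mean 62.2%), against 1.05% to 6.02% for Gly-GCC-a (mean 2.75%). The CCC shares were higher in 8 of 8 libraries. The mean difference from Gly-GCC-a was 49.2 ± 10.7 percentage points for Gly-CCC-a and 59.5 ± 8.79 for Gly-CCC-b (SD over libraries; two-sided exact sign-flip permutation test, n = 8, p = 0.0078 each, the smallest possible, and adjusted p = 0.0078 over 12 tests of tRNA against tRNA). Gly-CCC-a ended most often at base 33 (27.4%), base 30 (21.3%) and base 34 (15.3%), and Gly-CCC-b at base 33 (40.8%), base 32 (16.1%) and base 27 (12.8%).

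A Gly-CCC-a read of any length carries G9A and G15A, so telling it from Gly-GCC-a did not need the anticodon base. In both CCC sequences base 33, just inside the anticodon, led by its mean over libraries, and its range overlapped that of another end. In Gly-CCC-a base 33 ranged over 16.3% to 32.1% and base 30 over 12.6% to 37.4%, and in Gly-CCC-b base 33 ranged over 26.2% to 55.4% and base 27 over 5.29% to 33.2%. Gly-GCC-b, which differs only at base 5, ended like Gly-GCC-a, with 48.6% at base 31 and 30.3% at base 30. Its share at base 33 or later was 0.400% to 2.65%, lower than that of Gly-GCC-a in 8 of 8 libraries by a mean of 1.71 percentage points (exact sign-flip permutation p = 0.0078). Asp-GTC, whose anticodon begins at base 34, ended at base 34 in 44.5% of its reads, and 71.9% to 82.9% of its reads reached its anticodon's first base.

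**Figure D3:**
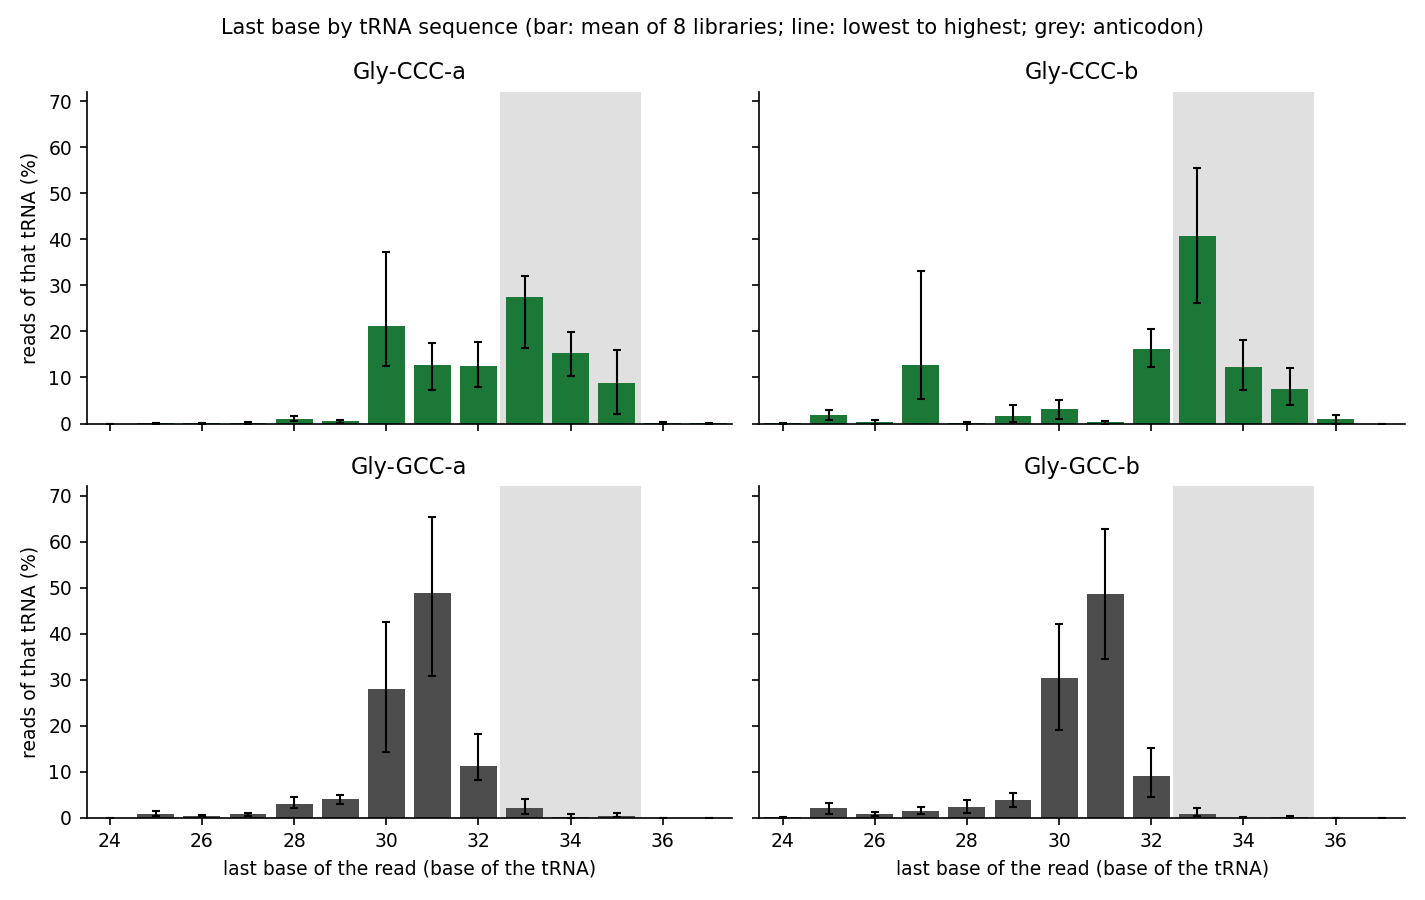
Share of the reads of each glycine tRNA sequence (percent, vertical axis) by last base (horizontal axis, bases of the tRNA); bars are means of 8 libraries, lines run from the lowest to the highest library and the grey band is the anticodon. Both CCC sequences peak at base 33, with means of 27.4% and 40.8%, while both GCC sequences peak at base 31, with means of 48.9% and 48.6%.

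The 3′ counterparts also differed between the sequences. Reads ending in the acceptor arm of Gly-GCC-a and the CCA tail, which Gly-CCC-a shares, were at 113 and 189 CPM in Dnmt2-/- HFD sperm, against 26.4 and 62.3 CPM in Dnmt2-/- ND sperm. They were at 182 and 174 CPM in Dnmt2+/+ HFD sperm, against 31.003 and 167 CPM in Dnmt2+/+ ND sperm. The 5′ reads of Gly-GCC-a outnumbered them 710-fold to 8332-fold. Reads ending in the Gly-CCC-b arm were at 18.1 to 156 CPM, and the 5′ reads were 0.29 to 5.81 times as many. The diets overlapped for both arms. Gly-GCC-b was like Gly-GCC-a in this, with 5′ reads 1266-fold to 12612-fold as many as reads of its own 3′ arm. The libraries hold no read longer than 44 nt, so 3′ fragments beyond that length were not counted.

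A G-to-T reading at base 6 was the most common difference from Gly-GCC-a. Among all reads that begin with the first bases of Gly-GCC-a, allowing for a change at base 6, G6T was read in 20.8% and 17.9% in Dnmt2-/- HFD sperm, against 18.7% and 15.4% in Dnmt2-/- ND sperm. It was read in 18.8% and 16.8% in Dnmt2+/+ HFD sperm, against 15.9% and 18.1% in Dnmt2+/+ ND sperm. The diets, the genotypes and the sets all overlapped. Within the members, where a G6T read may carry no other difference, it was 13.1% to 17.3%.

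The other tRNAs did not share it equally although all carry G at base 6. G6T averaged 17.8% (15.4% to 20.8%) in Gly-GCC-a, 11.5% (9.18% to 13.7%) in Gly-CCC-a, 2.43% (1.89% to 3.27%) in Gly-GCC-b, 0.040% (0 to 0.125%) in Gly-CCC-b and 3.97% (2.58% to 5.23%) in Asp-GTC. Gly-GCC-a was above each of the others in 8 of 8 libraries (exact sign-flip permutation p = 0.0078 each, the smallest possible). The contrast with Gly-GCC-b was 15.4 ± 2.10 percentage points (SD, n = 8 libraries), although these sequences differ by 1 base next to base 6. The 3′ arm that would pair with a T at base 6 was seen in 18 reads, or 0.158% of those with the Gly-GCC-a arm.

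Reads with 1 base missing at base 6 (1 of the G pair at bases 6 and 7) fell outside the member rule and had their own pattern. They made up 7.94% to 11.3% of Gly-GCC-a and 5.19% to 8.67% of Gly-CCC-a. Gly-GCC-b, with a run of G at bases 5 to 7, gives the same read when it loses a G as Gly-GCC-a does when it loses a T before base 6, so these 6655 reads were given to neither. In Gly-GCC-a the G6T reading was the more common of these changes in each library. Asp-GTC and Gly-CCC-b, which have no G pair there, averaged 0.164% and 0.061%.

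**Figure D4:**
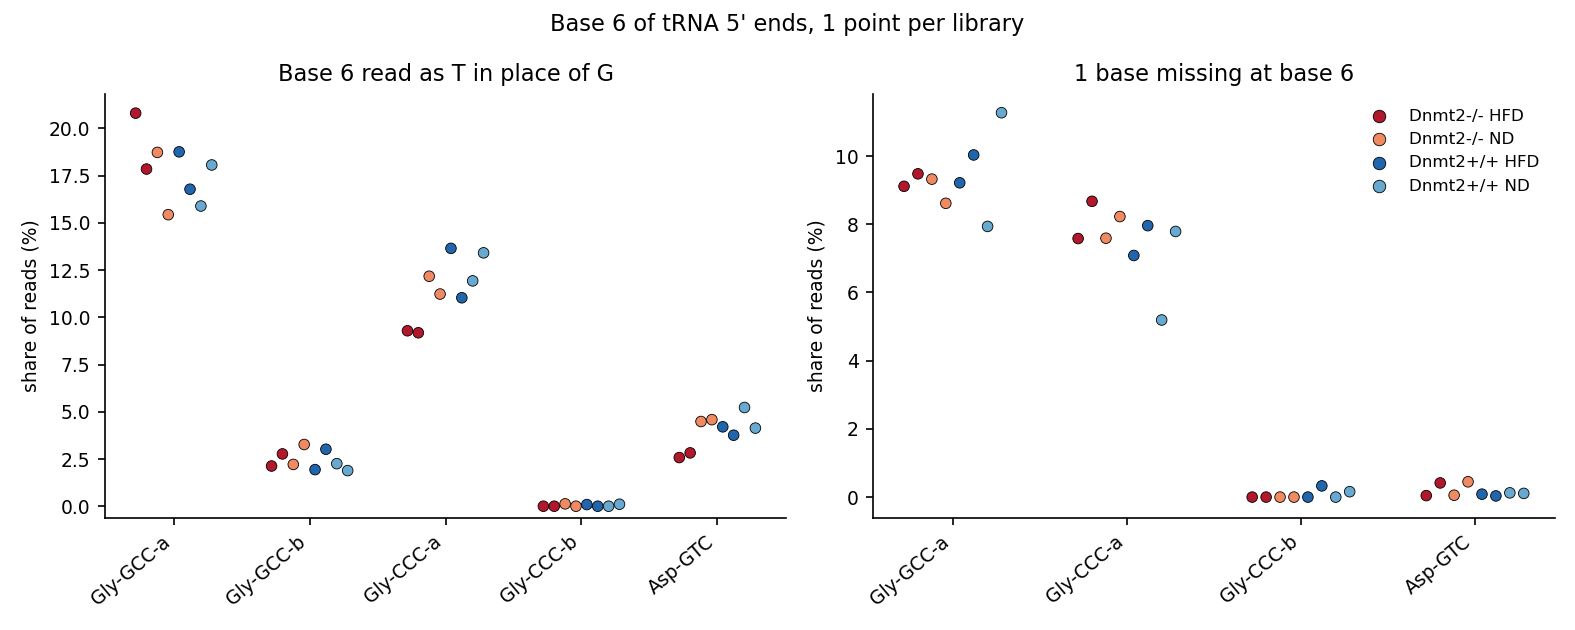
Share of reads (percent, vertical axes) with T in place of G at base 6 (left) and with 1 base missing there (right) for tRNA 5′ ends, 1 point per library, coloured by group. For the left panel Gly-GCC-a lies at 15.4% to 20.8% and Gly-CCC-b near 0, and for the right panel, which leaves out Gly-GCC-b, Gly-GCC-a lies at 7.94% to 11.3% and Gly-CCC-a at 5.19% to 8.67%.

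Other substitutions varied with the library set. The last base of the read was often changed: of Gly-GCC-a reads of 28 to 36 nt it differed from the tRNA in 31.5% and 9.93% in Dnmt2-/- HFD sperm, against 11.1% and 6.12% in Dnmt2-/- ND sperm. It differed in 31.1% and 31.4% in Dnmt2+/+ HFD sperm, against 7.67% and 17.95% in Dnmt2+/+ ND sperm. By set, all libraries of set B lay above those of sets A and C, and sets A and C overlapped. Among differing last bases of Gly-GCC-a, 62.5% to 70.4% were T and 23.46% to 28.4% were A. A member with a differing last base was counted as ending at that base, so such reads are part of the end shares and end levels above. Whether that base came from the tRNA was not tested.

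Most changes named by position were at the last base, and C31T was again highest in set B. C31T at the last base was read in 23.6% and 6.80% in Dnmt2-/- HFD sperm, against 5.79% and 3.04% in Dnmt2-/- ND sperm, and in 22.6% and 25.1% in Dnmt2+/+ HFD sperm, against 4.17% and 11.8% in Dnmt2+/+ ND sperm. C30T reached 2.38% to 21.0% and C35T 3.08% to 27.4% of the reads that ended there, again with set B highest. Of the 26 substitutions and places at 1% or more in at least 1 library, 23 were at the last base, and the other 3 were G6T, G29T and G33T inside the read. G29T inside the read was at 9.36% to 9.40% in set A and about 0.02% elsewhere, and G33T at 3.93% to 4.36% in set A and at most 0.239% elsewhere. G29T was also high in set A as the last base of a read, at 13.05% to 17.9%, against at most 0.611% elsewhere, and so did not follow the order of the other last-base changes. G-to-T at base 29 is the mark that defined set A, measured there on abundant reads that are not glycine members.

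**Figure D5:**
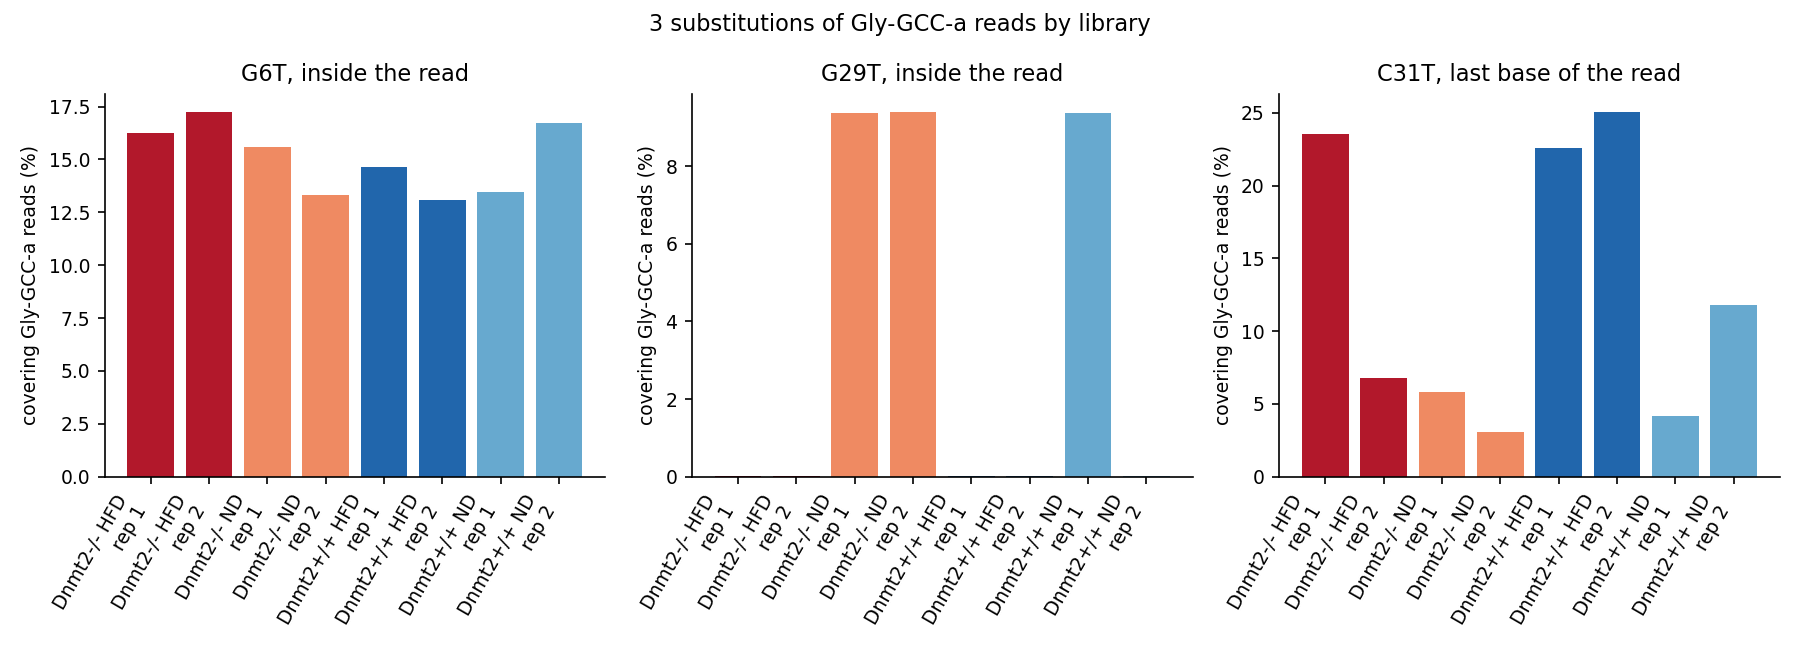
Share of covering Gly-GCC-a reads (percent, vertical axes from 0) with G6T inside the read, G29T inside the read and C31T at the last base, 1 bar per library coloured by group. G6T is between 13.1% and 17.3% in all libraries, G29T reaches 9.36% to 9.40% in 3 ND libraries and is near 0 in the other 5, and C31T is highest, at 22.6% to 25.1%, in 3 HFD libraries.

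The share of member reads with 1 substitution was 45.4% and 30.3% in Dnmt2-/- HFD sperm, against 37.8% and 32.3% in Dnmt2-/- ND sperm. It was 44.2% and 43.4% in Dnmt2+/+ HFD sperm, against 33.4% and 34.7% in Dnmt2+/+ ND sperm. The mean was 40.8% ± 7.07 in HFD and 34.6% ± 2.37 in ND (SD, n = 4 each; exact permutation test p = 0.143), and within set C the HFD library was 4.46 percentage points lower. Between Dnmt2-/- and Dnmt2+/+ the means were 36.5% ± 6.76 and 38.9% ± 5.64 (SD, n = 4 each; exact permutation test p = 0.600), and over sets A and B the difference was 1.65 points in the other direction.

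No single member sequence was called for diet or genotype by edgeR with all 8 libraries. Of the 4481 members, 1032 passed the filter on low counts, and 0 of them were called in any of the 5 comparisons at an adjusted p under 0.05, beside 0% of all 50460 sequences. At an unadjusted p under 0.05 the members numbered 111 for HFD over ND in Dnmt2+/+ sperm and 118 in Dnmt2-/- sperm, 10 for Dnmt2-/- over Dnmt2+/+ on ND, 8 on HFD and 8 for the interaction. All sequences at that level numbered 7734, 6807, 1725, 2167 and 2226 in the same order of comparisons. Without Dnmt2+/+ ND replicate 2 edgeR called 83 members for diet in Dnmt2+/+ sperm (8.04%, beside 10.8% of all sequences) and 65 for diet in Dnmt2-/- sperm (6.30%, beside 7.26%). Dropping Dnmt2+/+ ND replicate 1 gave 63 member calls for HFD over ND in Dnmt2-/- sperm (6.10%, beside 6.37%), 16 for genotype on ND (1.55%, beside 1.82%) and 6 for the interaction (0.581%, beside 0.200%). With DESeq2 the member calls were 21 (1 higher and 20 lower on HFD, against a background of 3.66% of sequences called) in Dnmt2+/+ and 34 (3 higher and 31 lower, background 3.54%) in Dnmt2-/- sperm. DESeq2 called 2 members on ND between genotypes (background 0.282%) and none on HFD (background 0.366%) or for the interaction (background 0.121%).

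The members behind these calls were mostly reads with a substitution, as were most members tested. Of the 1032 tested, 114 were exact matches and 23 carried G29T or G33T inside the read. Another substitution inside the read was carried by 784, and 111 had a changed last base. Of the 20 lower calls of DESeq2 in Dnmt2+/+ sperm, 7 carried G29T or G33T inside the read, the marks of set A, 11 another substitution inside the read, 1 a changed last base and 1 was an exact match. In Dnmt2-/- sperm 12 of the 31 carried G29T or G33T, 17 another substitution inside the read and 2 a changed last base. The 31-nt G29T read was at 11.1 and 17.7 CPM in Dnmt2-/- HFD sperm and 10.0 and 9.64 CPM in Dnmt2+/+ HFD sperm. It was at 14016 and 9105 CPM in Dnmt2-/- ND sperm, against 9323 and 23.1 CPM in Dnmt2+/+ ND sperm, so that it was low in the only ND library outside set A.

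Where diets did not overlap, members were more often lower than higher on HFD, a count that is no test of diet. HFD and ND libraries did not overlap for 35 members that were higher on HFD (3.39% of 1032) and 91 that were lower (8.82%), while over all sequences 8.23% were higher and 1.44% lower. Of the 91, 81 had a substitution inside the read other than G29T or G33T, 5 had G29T or G33T, 4 were exact matches and 1 had a changed last base. Reads with a substitution can be variants of the same abundant read, so these members need not be independent. Any substitution inside the read was carried by 27.9% to 30.2% of member reads in set A. The share was 18.2% to 20.8% in set B and 20.7% to 22.7% in set C. Among the 114 exact members tested, 14 were higher on HFD, all Gly-GCC-a reads that end at base 38 or from 40 to 44, and 4 were lower. The 4 were Gly-GCC-a bases 1 to 31, 3 to 31 and 2 to 30 and Gly-CCC-b bases 1 to 27. Some of the 14 were near the floor: Gly-GCC-a bases 1 to 38 lay at 0.301 to 1.94 CPM in HFD and 0 to 0.220 CPM in ND libraries. A read that rare can pass the filter on low counts through HFD libraries alone, so the number of higher reads is no test of diet. A rare lower read can likewise pass it through ND libraries alone, so the number of lower reads is no test either. The 42-nt exact read was at 50.7 and 32.7 CPM in Dnmt2-/- HFD sperm, against 8.72 and 10.2 CPM in Dnmt2-/- ND sperm. It was at 93.7 and 90.2 CPM in Dnmt2+/+ HFD sperm, against 0.105 and 12.9 CPM in Dnmt2+/+ ND sperm.

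The direction of the members as a list depended on the scaling. With TMM the median log2 fold change for HFD over ND was -0.44 over members and -0.15 over all sequences in Dnmt2+/+ sperm, and -0.41 and 0.12 in Dnmt2-/- sperm. Scaling by total reads moved the median of all sequences by 0.54 and 0.44, and the members' medians became 0.07 and 0.05, beside 0.39 and 0.56 over all sequences. The members thus lay below the rest under both scalings, and their own sign changed. For Dnmt2-/- over Dnmt2+/+ with TMM the members' medians were 0.30 on ND and 0.24 on HFD, beside -0.05 and 0 over all sequences, and with total reads they were -0.01 and -0.10, beside -0.27 and -0.30.

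The groups of reads whose level followed that of the glycine members most closely over the 8 libraries were looked up among 35 other groups with a mean of 1000 CPM or more. Likeness was the root mean square difference of centred log2 CPM. The nearest group is shown by its shared first 18 bases.
Nearest group: gcattgtggttcagtggt
It lay at a difference of 0.152 and is Gly-GCC-a with 1 base missing at base 6, at a mean of 19288 CPM. The next group lay at 0.455.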

How the data were processed

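The values deposited by the authors are raw counts, 1 line per distinct read with its length, number of reads and sequence. The labels' protocols name Trizol and the TruSeq small RNA kit, and the submitters' processing notes name the builds mm10 and GRCm38. The steps of adapter trimming and read filtering were not given in the sources used here. Lengths ran from 18 to 44 nt. Libraries held 10165031 to 19030258 reads, the 95% Wilson interval of the glycine share was at most ± 0.0239 percentage points, and a count of 0 allows 3 counts, or 0.158 to 0.295 CPM. Without molecular identifiers PCR copies cannot be told from separate molecules, so these limits describe counting error alone.

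No tRNA sequence was at hand, so each was built from reads of 36 nt or more by its anticodon, conserved bases and stem pairing (at least 4 of 5 pairs), at least 20 reads and 3 or more differences from a more abundant one. Gly-GCC-b, with 1 difference, was admitted because its 5′ reads (2.50%) and reads of its pairing 3′ arm (1.46%) each reached 1% of those of Gly-GCC-a. The plan had asked for reads of 40 to 44 nt, and the other conditions were set after the data were seen. A read went to the nearest sequence.

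Counts were tested with edgeR 4.0.16 in R 4.3.3 (quasi-likelihood, filterByExpr, 4 groups in 1 fit, Benjamini-Hochberg adjusted p under 0.05), per group of reads with the same first 18 bases (scaled by total reads) and per distinct sequence (TMM). DESeq2 1.42.0 was an alternative. The 5 summary measures were compared by exact permutation of 4 libraries against 4 and adjusted over 10 tests; 2 against 2 carries no test. On simulated counts 63% of 200 groups changed 4-fold were recovered for diet in Dnmt2+/+ sperm, among 24232 groups. The simulation gave every group the same fixed spread and held no library sets, so this share is not the power of the fits on the real libraries. Exact sign-flip tests between tRNAs, tests of single end positions and fits per tRNA sequence were added after seeing the data. Replicates of a group were not copies (chi-square per degree of freedom of 26.4 to 343). Named reads were the 10 most abundant, the top read of each tRNA, and substitutions or ends at 1% or more in any library. The members and all lists were chosen with earlier results of these data known. Leaving out each library, replicate blocks, library sets, scalings, filters, lengths and exact matching were tried as alternatives. Figures were drawn with matplotlib 3.10.9. The 3T3 libraries were not used here. The results for a further tRNA are not reported here.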

Additional observations from a re-analysis of the deposited data

Results flagged for a closer look

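Single libraries far from the others of their group of 4 were looked for in 44 groups of values, where chance alone flags about 1 in 20, and 4 stood out. Dnmt2-/- ND replicate 1 held 226039 CPM of glycine fragments, while the other 3 Dnmt2-/- libraries held 159233 to 167624 CPM. Dnmt2-/- HFD replicate 2 had 30.3% of member reads with 1 substitution, while the other 3 HFD libraries had 43.4% to 45.4%. The same library had 7.56% of member reads with a changed last base, while the other 3 HFD libraries had 24.5% to 25.2%. Dnmt2-/- HFD replicate 1 had 24.7% of member reads with a changed last base, while the other 3 Dnmt2-/- libraries had 4.33% to 7.63%. The last 3 values separate set B, to which Dnmt2-/- HFD replicate 1 belongs, from set C, to which Dnmt2-/- HFD replicate 2 belongs.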

How the results depend on the processing

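Of 263 values under alternatives, 241 kept their direction and their side of the threshold, 12 counts moved and 10 differences reversed. Counts of glycine classes called stayed at 0 under all alternatives that were run. Counts of member sequences, 0 by edgeR, became 21, 34 and 2 with DESeq2 for diet in Dnmt2+/+ sperm, diet in Dnmt2-/- sperm and genotype on ND. With the library set as a term they became 1 for diet in Dnmt2-/- sperm, 2 for each genotype comparison (ND and HFD) and 1 for the interaction, beside 32, 79, 70 and 26 of all 50460 sequences (members 0.0969% to 0.194%, all sequences 0.0515% to 0.157%). Leaving out 1 library gave 0 to 83 calls for diet in Dnmt2+/+ sperm (83 without Dnmt2+/+ ND replicate 2), 0 to 65 for diet in Dnmt2-/- sperm (65 without Dnmt2+/+ ND replicate 2 and 63 without Dnmt2+/+ ND replicate 1), 0 to 16 for genotype on ND and 0 to 6 for the interaction (16 and 6 without Dnmt2+/+ ND replicate 1). All sequences called in those fits numbered 5434 beside the 83, 3663 beside the 65, 3215 beside the 63, 919 beside the 16 and 101 beside the 6. The cause was not tested.

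Within sets A and B the Dnmt2-/- minus Dnmt2+/+ differences reversed to 30678 CPM and 1.65 points of substituted reads. The CCC share, at 0.00024 points, was counted as reversed too. That value is the mean of 0.050 points in set A and -0.049 points in set B, so it shows no common direction. Within set C the HFD minus ND differences reversed to -1.41 points of reads reaching the anticodon, -0.058 points of CCC share and -4.46 points of substituted reads. Leaving out 1 library, the genotype difference in level ran from -21423 to 28992 CPM (28992 without Dnmt2+/+ ND replicate 2) and the diet difference in CCC share from -0.0011 to 0.031 points (-0.0011 without Dnmt2+/+ HFD replicate 1). The diet difference in level kept its sign at -67741 to -22940 CPM, with -22940 without Dnmt2+/+ ND replicate 2 and -49533 with all libraries. The diet difference in reads reaching the anticodon was 0.92 to 2.49 points, with 0.92 without Dnmt2+/+ HFD replicate 2 and 1.72 with all libraries. None of these had passed a test.

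Same-numbered replicates did not deviate together in all pairs of groups (correlations of -0.42 to 0.22 over 2053 groups of reads). These mixed values cannot settle whether the numbers pair the libraries. A replicate block left the counts of classes and member sequences called at 0 and no measure passed (mean end for HFD against ND: p = 0.0556 by exact permutation within replicate numbers, the lowest). Depth limited Gly-CCC-b most, with 384 reads in its thinnest library.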

Other observations

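Reads outside the member rule were counted as well. Reads of Gly-GCC-a with 1 base missing in the first bases were at 15113 to 37859 CPM and those with 2 substitutions at 6211 to 20542 CPM. Reads ending in a 3′ arm that would pair with A3G of Gly-GCC-a (ccaacgcacca) numbered 497, or 4.37% of those with the Gly-GCC-a arm. Counted by their first 18 bases, 5′ reads with A3G were 0.332% of those of unchanged Gly-GCC-a. This change was picked after its values were seen, and no gene was assigned to it.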
